A study of Danio rerio and Oryzias latipes with 22 samples.

Results

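ISG-high cells are the zebrafish heart cells that carried transcripts of several interferon-stimulated genes (ISGs) at once. They were chosen by their UMI counts (unique molecular identifiers, tags that each mark 1 captured mRNA molecule): a cell counted as ISG-high when it held at least 1 UMI of at least 3 of the 7 genes *mxa*, *mxb*, *mxc*, *rsad2*, *isg15*, *ifit10* and *ifit12*. The choice was made among cells with at least 200 genes and at most 15% of UMIs in symbols that start with mt-. It found 1181 ISG-high cells among 38473 zebrafish cells that passed these filters, a share of 3.07%, in a series of 126955 barcodes. The ventricles came from wild-type Tübingen zebrafish that the labels describe as 6 to 18 months old, as the default. They were taken from uninjured fish (4 samples) and, after the apex of the ventricle had been frozen with a cooled probe (cryoinjury), at 3 days post-injury (d.p.i., 3 samples) and at 14 d.p.i. (6 samples). The labels do not say how many fish a sample holds, and p-values below measure the spread between samples, whatever its source. A further 9 samples of the series come from medaka and were not used here.

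Interferons are secreted proteins that cells release when they sense foreign or misplaced nucleic acid. In fish, type I interferons such as Ifnphi1 bind receptors of the cytokine receptor family b, and Jak and Tyk kinases then phosphorylate Stat transcription factors, which enter the nucleus with an interferon regulatory factor and switch on a broad set of ISGs. The genes used for the choice are among the most inducible of these. Mx proteins are dynamin-like GTPases that block viral replication, *rsad2* encodes viperin, a radical enzyme that makes a chain-terminating nucleotide, *isg15* encodes a ubiquitin-like modifier, and Ifit proteins bind foreign RNA. Several of them belong to families of closely related copies, whose reads a counting step can assign to the wrong copy.

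ISG-high cells were deeper than other cells. Their median was 15488 UMIs and 2882 genes per cell, against 3602.5 UMIs and 839 genes in the remaining cells, and their totals ran from 1009 to 339026 UMIs, with 123 cells above 50000. A deep cell passes a rule on detected genes more easily, so the main shares are also given after thinning cells to the same number of UMIs. Cells below that number were left out of the thinned shares. The shares of single clusters are given as sequenced unless stated otherwise. Samples ranged from 11107238 to 75811359 UMIs in all. The cells with the highest doublet scores in their sample (top 6%) made up 10.8% of ISG-high cells and 5.85% of the other cells. Mitochondrial symbols that do not start with mt- held 4.0% of the UMIs of ISG-high cells and 21.0% of those of other cells, and with them in the 15% limit 18852 cells and 1042 ISG-high cells remained. Of the ISG-high cells, 9 had a barcode that also occurred in another zebrafish sample, and none of these was ISG-high in both. Uninjured replicates 1 and 2 were counted on another gene list, which names 6 of the 7 genes, and held 3 ISG-high cells, the same number as with the other symbol of *ifit10* included.

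The 7 genes were used for the choice, so their levels are given as a description. *isg15* was found in 96.1% of ISG-high cells and *rsad2* in 75.4%. *mxa* followed with 67.7%, *ifit10* with 42.4%, *mxb* with 34.04%, *ifit12* with 30.1% and *mxc* with 13.5%. In CPM (UMIs of a gene scaled to a common library total) over summed cells, *isg15* stood at 479 in ISG-high cells and 41.9 in other cells, *rsad2* at 276 and 21.1, and *mxa* at 68.2 and 4.11. *isg15* and *rsad2* thus carried most of the signal, with 49.7% and 28.6% of the ISG-high cells' UMIs of the 7 genes. ISG-high cells, 3.07% of all, held 59.55% of the UMIs of these genes. Erythroid-like cells, given here as a background for free RNA, showed *isg15* in 8.46% and *rsad2* in 6.76% of cells at a median depth of 1018 UMIs, and each of the other 5 genes in at most 0.0756%.

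The threshold of 3 genes lay within a continuous range. There were 30702 cells with none of the genes, 4759 with 1 and 1831 with 2. Of the ISG-high cells, 706 had exactly 3 genes, 310 had 4, 113 had 5, 44 had 6 and 8 had 7. Cells just inside the threshold, with 3 genes, had a median of 7 UMIs of these genes and a median depth of 11834 UMIs, while those just outside, with 2 genes, had 3 UMIs and a depth of 7725. The most common combination was *mxa*, *rsad2* and *isg15* without the others, in 226 cells (19.1%), followed by *rsad2*, *isg15* and *ifit10* in 136. When the Mx genes were counted as 1 gene and the Ifit genes as 1, 1052 cells still had 3 of the resulting 4.

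Over cells pooled from all samples, the lineages differed in which of the genes they carried. *mxb* was found in 76.1% of the 255 epicardial-like ISG-high cells and in 16.8% of the 630 endothelial-like ones, whereas *rsad2* was found in 58.8% of the epicardial-like and in 86.5% of the endothelial-like cells. *mxc* was found in 52.9% of the 68 leukocyte-like ISG-high cells and in at most 20.0% of those of any other named lineage. Leukocyte-like cells also had the highest *isg15* level, with 1321 CPM, against 400.1 CPM in epicardial-like and 361 CPM in endothelial-like cells. Cells with 5 or more of the genes made up 33.7% of epicardial-like and 4.92% of endothelial-like ISG-high cells, at median depths of 32000 and 11541.5 UMIs. Of the 8 cells with all 7 genes, 75.0% were epicardial-like. The lineages also came from different samples. Replicate 2 at 3 d.p.i. gave 130 of the 255 epicardial-like ISG-high cells, and *mxb* was found in 60.3% of all its ISG-high cells. Replicate 4 at 14 d.p.i. gave 197 of the 630 endothelial-like ones, and *mxb* was found in 10.5% of all its ISG-high cells. The part of sample and depth in the differences between lineages was not tested.

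**Figure D1:**
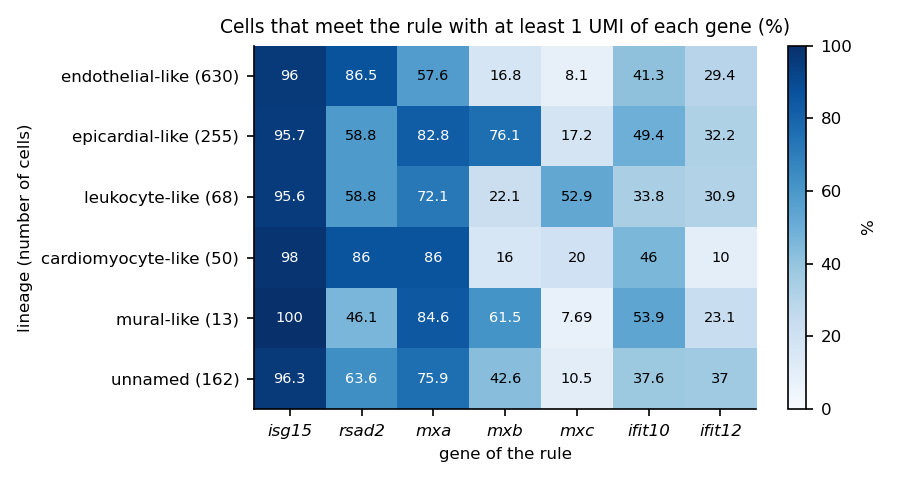
Share of ISG-high cells, pooled over samples (%), with at least 1 UMI of each of the 7 genes (columns), by lineage (rows, with the number of cells). Endothelial-like cells lean on *isg15* and *rsad2*, epicardial-like cells add *mxb* (76.1%), and leukocyte-like cells add *mxc* (52.9%).

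The ISG-high cells were spread very unevenly over the samples. At 3 d.p.i. the samples held 352, 242 and 44 of them, which is 13.6%, 8.59% and 1.41% of their cells. At 14 d.p.i. the shares were 0.269%, 0.688%, 0.401%, 7.93%, 0.502% and 0.644%, and in uninjured ventricles 0.0772%, 0.0909%, 3.66% and 0.422%. Replicate 4 at 14 d.p.i. stood far above the other samples of its time point, with 343 cells, and uninjured replicate 3 likewise stood apart within its group, with 104. Together with replicates 1 and 2 at 3 d.p.i., these samples held 1041 cells, or 88.15% of all.

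The mean share was 7.88% ± 6.14 at 3 d.p.i. (SD, n = 3) and 1.06% ± 1.74 in uninjured ventricles (SD, n = 4). The difference of 6.82 percentage points had p = 0.057 in a two-sided exact permutation test over samples, or 0.086 after Benjamini-Hochberg adjustment over the 3 contrasts, and the smallest p this design allows is 0.029. All samples at 3 d.p.i. were higher than 3 of the 4 uninjured samples, and the ranges overlapped only through uninjured replicate 3. At 14 d.p.i. the mean was 1.74% ± 3.04 (SD, n = 6), which differed from 3 d.p.i. by -6.14 points (exact permutation p = 0.024, adjusted p = 0.071) and from uninjured ventricles by 0.676 points (exact permutation p = 0.75, adjusted p = 0.75). None of the contrasts passed the threshold of 0.05 after adjustment. Without erythroid-like and thrombocyte-like clusters, which hold almost no ISG-high cells, the first difference was 12.6 points and the second -11.43, both with an adjusted p of 0.043 in the exact permutation test. At least 500 genes per cell had a similar effect, with 14.32 and -12.98 points and the same adjusted p of 0.043 in this permutation test. Both are shares as sequenced. Erythroid-like cells numbered 449, 1408 and 2165 in the samples at 3 d.p.i. and 250, 357, 2 and 8 in uninjured ventricles. Leaving them out therefore raised the shares unequally between samples.

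Thinning removes UMIs, and both the shares and their differences in points were lower after it. The mean share at 3 d.p.i. was 7.41-fold that of uninjured ventricles as sequenced and 4.50-fold after thinning to 2000 UMIs. These folds cover unlike sets of cells, because cells below 2000 UMIs were left out of the thinned shares. At 3 d.p.i. 1756 of 2583, 1314 of 2816 and 992 of 3114 cells entered. In uninjured ventricles 1291 of 1295, 2181 of 2201, 2260 of 2839 and 2754 of 3316 entered. The median depth was 5310, 1564.5 and 895 UMIs per cell in the samples at 3 d.p.i., and lay between 1190 and 4919 at 14 d.p.i. and between 3165 and 6063 in uninjured ventricles. After thinning to 2000 UMIs per cell, the share was 1.55%, 3.24% and 0.0793% at 3 d.p.i., against 0.0303%, 0.00668%, 1.35% and 0.0564% in uninjured ventricles. The means of 1.62% ± 1.58 (SD, n = 3) and 0.361% ± 0.659 (SD, n = 4) differed with p = 0.17 in the exact permutation test (adjusted p = 0.36). Replicate 3 at 3 d.p.i. fell to the level of the uninjured samples in this measure, whereas replicates 1 and 2 stayed above all of them. At 14 d.p.i. replicate 4 reached 2.01% and the others lay between 0.0210% and 0.582%. The summed CPM of the 7 genes over all cells, which does not depend on how many genes a cell shows, was 316, 609 and 122 at 3 d.p.i., and 21.9, 17.1, 123 and 17.0 in uninjured ventricles. It was 475 in replicate 4 at 14 d.p.i. and between 35.8 and 134 in the others.

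**Figure D2:**
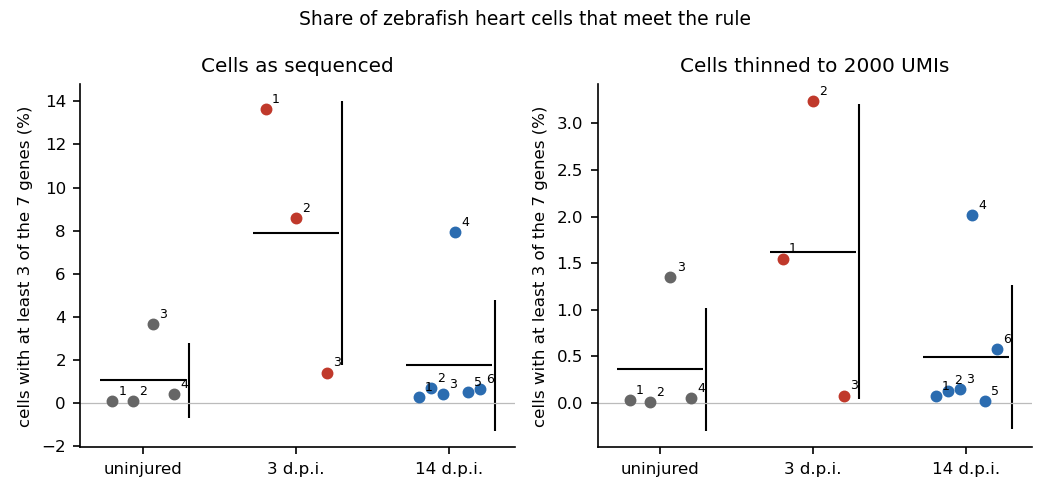
Share of cells that are ISG-high (%), with each point 1 sample and its replicate number, as sequenced (left) and after thinning to 2000 UMIs per cell (right). Horizontal lines are group means and vertical lines 1 SD either side of the mean. Samples at 3 d.p.i. range from 1.41% to 13.6%, and uninjured replicate 3 and replicate 4 at 14 d.p.i. stand apart from their groups.

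Cells were grouped into 38 clusters without the listed interferon genes and named from marker genes. Endothelial-like cells made up most ISG-high cells, with 630 of 13850 such cells, followed by epicardial-like cells with 255 of 2426. Leukocyte-like cells contributed 68 of 2825, cardiomyocyte-like cells 50 of 5989 and mural-like cells 13 of 276. Clusters with no name held 162 ISG-high cells, thrombocyte-like cells 2 of 1564 and erythroid-like cells 1 of 7934. None was found among 52 glial-like or neural-like cells, which allows a share of up to 5.77%.

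The markers had served to name the clusters, so their values in the ISG-high cells are given as a description and do not test the names. Of the endothelial-like ISG-high cells, 98.7% carried *cdh5*, the adhesion molecule of endothelial junctions, and 0.476% carried *tcf21*, a transcription factor of the epicardium. The collagen gene *col1a2*, on the epicardial marker list, was nevertheless found in 78.7% of them, against 68.0% of matched endothelial-like cells. Epicardial-like ISG-high cells carried *tbx18* in 90.2% and *col1a2* in 99.2%, with *cdh5* in 5.1%. They carried *tcf21* in 59.2%, against 69.1% of matched epicardial-like cells. Leukocyte-like ISG-high cells carried the macrophage genes *c1qc* in 91.2% and *marco* in 88.2%, and 64 of the 68 lay in the cluster led by these genes. The 50 cardiomyocyte-like ISG-high cells all carried *myl7*, a myosin light chain of the fish heart, but 50.0% of them also carried *cdh5* and 50.0% *col1a2*. In 234 cardiomyocyte-like cells of the same samples and clusters and of nearest depth, *cdh5* was found in 25.2% and *col1a2* in 23.5%, at median depths of 29438.5 UMIs against 35998 in the ISG-high ones. All 10 endothelial markers were found more often in the ISG-high cardiomyocyte-like cells than in these matched cells, and the part of cell doublets or free RNA in this was not tested.

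Within samples, epicardial-like cells were ISG-high more often than the other cells. The mean share was 15.2% of epicardial-like cells and 3.02% of the remaining cells over 10 samples, with the epicardial-like share higher in 8 (exact sign-flip permutation test, adjusted p = 0.030 over 6 lineages). After thinning to 1000 UMIs per cell the means were 0.834% and 0.201%, again higher in 8 of 10 samples (exact permutation test, adjusted p = 0.032). Cardiomyocyte-like cells were ISG-high less often, with 1.00% of them against 3.57% of other cells, lower in 11 of 12 samples (permutation test, adjusted p = 0.0078), and higher in none of 12 after thinning (0.0358% against 0.263%, permutation test, adjusted p = 0.0029). The share was also lower in thrombocyte-like cells (0.140% against 3.97%, lower in 9 of 9 samples) and in erythroid-like cells (0.0361% against 4.63%, lower in 10 of 11), both with an adjusted p of 0.0078 in the exact permutation test. After thinning both were higher in no sample (0.0187% against 0.264% and 0.000129% against 0.257%). The result for endothelial-like cells changed with thinning. Their share was 4.93% against 2.03% in other cells and higher in 11 of 13 samples (permutation test, adjusted p = 0.015). After thinning it was 0.179% against 0.225% and higher in 8 of 13 samples, with a p of 0.57 in the same permutation test. Leukocyte-like cells had 2.57% against 3.24%, higher in 6 of 12 samples (exact permutation p = 0.80), and 0.360% against 0.206% after thinning (exact permutation p = 0.37).

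The endothelial-like ISG-high cells came mainly from a few clusters. A cluster led by *edn1* (endothelin), *cfd*, *vcam1b* (an adhesion molecule for leukocytes) and *gpr182* held 399 of them among 3423 cells. They were 22.4%, 10.3% and 8.03% of its cells in the samples at 3 d.p.i. and 12.09% in replicate 4 at 14 d.p.i., which gave 43.2% of the cluster. A small cluster of 212 cells led by *txn* and *aldh1a2* (retinoic acid synthesis) held 77, of which 71 were from 3 d.p.i., and 74.1% of it came from replicate 1 at 3 d.p.i. The samples at 3 d.p.i. gave 157, 7 and 26 of its 212 cells, so most of this cluster itself came from that time. Of the 78 ISG-high cells of a cluster led by *klf9* and *nr1d1*, 73 were from uninjured ventricles, 63 of them in replicate 3. Uninjured replicates 3 and 4 gave 1414 and 880 of the 2373 cells of this cluster, so most of the cluster itself was uninjured.

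Among epicardial-like cells, a cluster led by *fn1a* (fibronectin), *col12a1b* and *tnc* (tenascin C), genes of a provisional matrix, was ISG-high in 207 of 433 cells (47.8%), the highest share of any cluster as sequenced. It held 60 of 122, 128 of 193 and 13 of 101 cells in the samples at 3 d.p.i., and 6 ISG-high cells at 14 d.p.i. Its depth was high, with a median of 29374 UMIs per cell. After thinning to 1000 UMIs its shares in the samples at 3 d.p.i. were 0.351%, 4.59% and 0.0172%. In each of these samples another cluster was then higher. The *edn1* cluster had 0.791% in replicate 1. An unnamed cluster led by *cxcl12b* and *plvapb* had 4.62% in replicate 2 and 1.13% in replicate 3. The other epicardial-like clusters were ISG-high in 25 of 1193 cells (led by *hapln1a* and *itih5*) and in 23 of 800 (led by *c4b* and *adh8a*). An unnamed cluster led by the matrix genes *cilp2*, *postnb* (periostin) and *thbs4b*, in which 7 mural and 6 epicardial markers were raised, was ISG-high in 70 of 546 cells. Here 69 of the 70 were from 14 d.p.i., with 44 of 260 cells in replicate 4 and 21 of 144 in replicate 2, so that this cluster held 21 of the 31 ISG-high cells of replicate 2. Replicates 1 to 5 at 14 d.p.i. gave 61, 144, 25, 260 and 49 of its 546 cells, so nearly all of the cluster itself came from that time. The macrophage-like cluster was ISG-high in 64 of 1248 cells, of which 33 of 193 were in replicate 4 at 14 d.p.i., 10 of 52 in replicate 2 at 3 d.p.i. and 9 of 71 in replicate 1. An unnamed cluster led by the division genes *cenpf*, *top2a* and *mki67* held 26 among 180 cells, at a median depth of 35249.5 UMIs in the ISG-high ones. Of the cardiomyocyte-like ISG-high cells, 28 lay in a cluster of 676 cells that expressed the stress gene *nppb* among its leading genes, 23 of them among its 265 cells from replicate 4 at 14 d.p.i.

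The share within a lineage was then compared between time points. Of the endothelial-like cells, 24.6%, 9.85% and 8.85% were ISG-high at 3 d.p.i., against 0.122%, 0.1345%, 4.83% and 1.19% in uninjured ventricles. Of the leukocyte-like cells these were 3.44%, 10.6% and 2.37%, against 0%, 0%, 1.89% and 0.671%. In both lineages each sample at 3 d.p.i. exceeded each uninjured sample, and both had the smallest exact permutation p this design allows, 0.029, but an adjusted p of 0.14 over the 16 comparisons of lineages and times. Epicardial-like cells reached 49.7%, 65.3% and 11.71% at 3 d.p.i., against 8.33% and 0% in the 2 uninjured samples with at least 50 such cells (exact permutation p = 0.20, adjusted p = 0.52). At 14 d.p.i. they were at 0.343%, 0.962%, 1.37%, 14.0% and 0%, a mean of 3.34% against 42.2% at 3 d.p.i. (exact permutation p = 0.036, adjusted p = 0.14). Cardiomyocyte-like cells had 3.90%, 1.92% and 1.55% at 3 d.p.i., against 0%, 0.631% and 0% in uninjured ventricles (exact permutation p = 0.10, adjusted p = 0.32). After thinning to 1000 UMIs the p for 3 d.p.i. against uninjured was 0.60 in endothelial-like, 0.057 in leukocyte-like and 0.50 in cardiomyocyte-like cells in the permutation test. In epicardial-like cells, whose median depth at 3 d.p.i. was 24594 to 31849 UMIs, the thinned mean was 1.747% at 3 d.p.i. and 0.4158% in uninjured ventricles (exact permutation p = 0.80), and 0.4527% at 14 d.p.i. against 1.747% at 3 d.p.i. (exact permutation p = 0.36).

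Replicate 4 at 14 d.p.i. was the highest of its time point in 4 lineages. In it 11.3% of endothelial-like, 14.0% of epicardial-like, 10.4% of leukocyte-like and 4.04% of cardiomyocyte-like cells were ISG-high. The other samples of its time point with at least 50 such cells reached at most 1.58%, 1.37%, 0.810% and 0% in the 4 lineages. None of its 516 erythroid-like cells was ISG-high, but their median depth was 761 UMIs, and the shallowest ISG-high cell of any sample had 1009. In uninjured replicate 3, 8.33% of epicardial-like and 4.83% of endothelial-like cells were ISG-high.

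**Figure D3:**
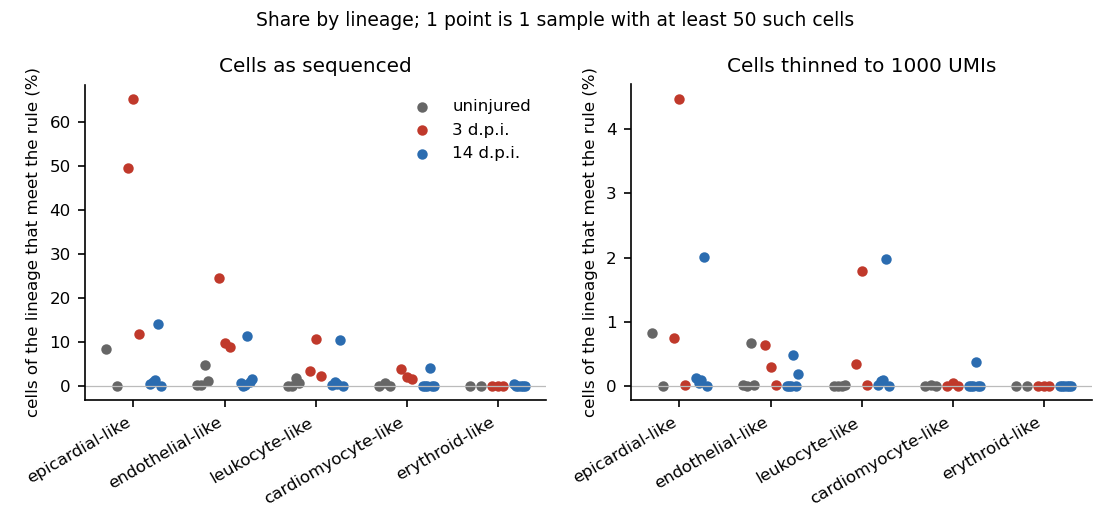
Share of the cells of a lineage that are ISG-high (%), with each point 1 sample with at least 50 such cells, as sequenced (left) and thinned to 1000 UMIs per cell (right). The epicardial-like samples at 3 d.p.i. reach 11.71% to 65.3%, and erythroid-like cells stay near 0.

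To describe the other genes of ISG-high cells, their UMIs were summed per sample and set against those of up to 5 cells each of the same sample and cluster that were not ISG-high and had the nearest depth. This used 9 samples with at least 10 ISG-high cells, 1163 ISG-high cells and 4210 matched cells. Depth could not be matched fully, with medians of 15564 and 7182.5 UMIs, and 72 ISG-high cells had no matched cell left and stayed in the sums. The mix of cell types in the sums differed as well. In replicate 2 at 3 d.p.i., 130 of 242 ISG-high cells were epicardial-like. Its 523 matched cells compare with 67 matched cells in the fit within epicardial-like cells. The part of this mix in the fold changes over all lineages was not tested. In edgeR, with the sample as a block and the 7 genes left out, 57 of 10033 genes were higher (0.568% of genes tested) and 36 were lower (0.359%) at an adjusted p under 0.05. Without TMM scaling, which shifted the median of all genes from -0.017 to 0.0948 in log2, the split was 117 higher and 24 lower. With 1 matched cell each within 0.5 log2 units of depth (998 cells on both sides, medians 13327 and 12810 UMIs), 62 of 6413 genes were higher (0.967%) and 8 were lower (0.125%), and 28 and 5 of these were shared with the first fit. No gene had all 9 sums of ISG-high cells above all 9 sums of matched cells (0.0%), while 77 genes were higher in all 9 samples (0.767%).

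Other ISGs were higher as a group. Of 40 tested genes on the list, 38 had a positive change and 15 passed the test, against the 0.568% of all genes tested, and none was lower. The median log2 fold change was 0.706, against -0.017 over all genes tested. In the comparison with 1 matched cell each, 20 of 34 were higher with a median of 0.741, against 0.967% of all genes tested. *mxe*, a further Mx gene, ranged from 4.73 to 109 CPM over the 9 samples with a median of 64.4 in ISG-high cells, against 4.0 to 28.4 with a median of 13.3 in matched cells. It was higher in 9 of 9 samples (log2 fold change 1.69 ± 0.24 SE, edgeR adjusted p = 0.0029). *mxe* and *ifit11*, both among the 15, belong to families of genes used for the choice. The part of reads assigned to the wrong copy in their rise was not tested. *cmpk2*, a mitochondrial nucleotide kinase induced with *rsad2*, rose by 1.39 ± 0.21 in log2 (adjusted p = 0.0027), with a median of 13.8 CPM against 5.41. Within endothelial-like cells its change was 0.72 and did not pass (edgeR adjusted p = 0.072). *pkz*, a kinase of fish that senses Z-form nucleic acid, rose by 1.199 ± 0.18 (adjusted p = 0.0027) and *znfx1*, a helicase that binds viral RNA, by 1.02 ± 0.15 (adjusted p = 0.0027), each in 9 of 9 samples.

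Other genes among those with the smallest adjusted p follow, of which *irf7*, *gig2e*, *rnf213b*, *mov10b.1* and *xaf1* are among the 15 ISGs counted above and *helz2*, *lgals17*, *ftr91* and *ascl1b* stood on no list. *irf7*, the factor that amplifies interferon production, had 18.2, 85.0 and 21.4 CPM in ISG-high cells at 3 d.p.i., against 12, 13.1 and 9.69 in matched cells. At 14 d.p.i. its values in ISG-high cells were 40.6, 52.3, 87.6 and 14.2 CPM, against 9.02, 6.04, 12.4 and 4.00. In uninjured ventricles they were 64.4 and 4.59 CPM, against 17.1 and 10.0. It was thus higher in all but uninjured replicate 4, by 1.88 ± 0.29 in log2 over all 9 (edgeR adjusted p = 0.0055). *gig2e*, of a fish family of interferon-induced genes, rose by 1.77 ± 0.26 (adjusted p = 0.0048, higher in 6 of 9 samples and lower in none), *helz2*, a helicase, by 1.1 ± 0.21 (adjusted p = 0.012) and *lgals17*, a galectin, by 1.01 ± 0.17 (adjusted p = 0.0049). *lgals17* was among the most abundant, with a median of 169 CPM against 98.7, and was found in 84.3% of ISG-high cells against 12.9% of all other cells at lower depth. *rnf213b* (0.95 ± 0.17), a ubiquitin ligase, *ftr91* (0.99 ± 0.18), a member of the fish TRIM family, *mov10b.1* (0.89 ± 0.17), an RNA helicase, and *xaf1* (0.73 ± 0.14), a promoter of cell death, rose too, with adjusted p between 0.010 and 0.015. So did *ascl1b* (1.08 ± 0.17, adjusted p = 0.0037), a transcription factor best known from the nervous system. Its level was low, with a median of 28.2 CPM against 12. *ftr91*, *mov10b.1*, *xaf1* and *ascl1b* passed in none of the fits within lineages in which they were tested.

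**Figure D4:**
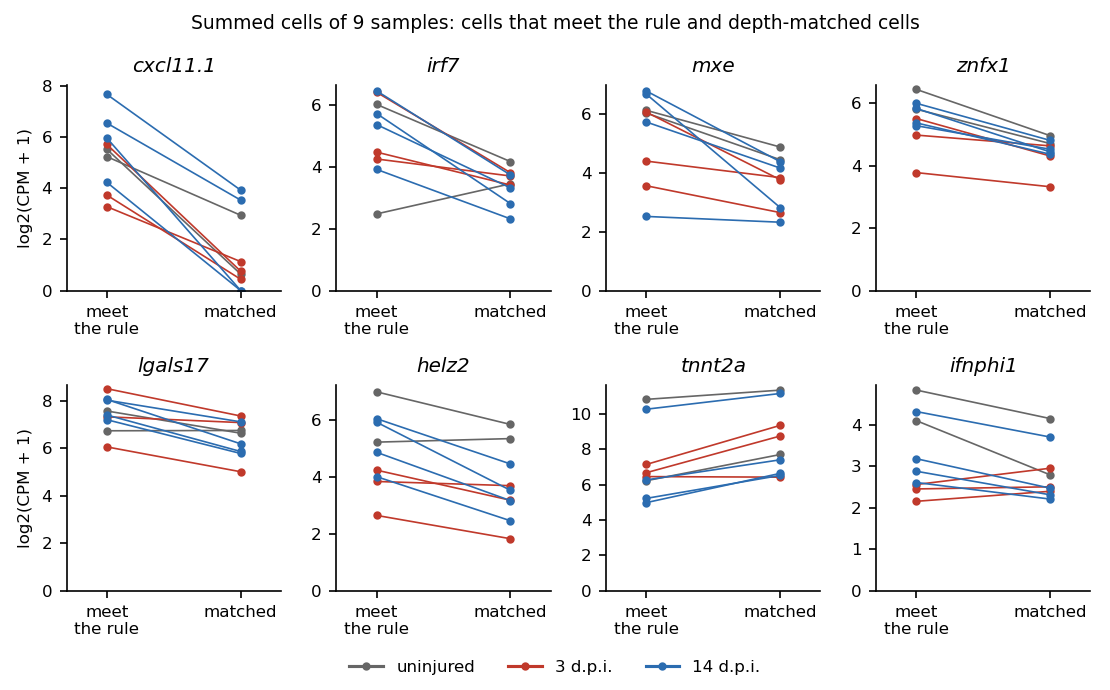
log2(CPM + 1) of 8 genes in summed ISG-high cells (left of each panel) and in matched cells of the same sample (right), with each line 1 of 9 samples, coloured by time point. *cxcl11.1*, *irf7*, *mxe*, *znfx1*, *lgals17* and *helz2* stand higher in ISG-high cells in at least 8 of 9 samples, *tnnt2a* is lower in 8, and *ifnphi1* differs little.

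The sensors that trigger interferon production moved in part. Of 10 tested sensors of foreign nucleic acid, 2 were higher, against 0.568% of all genes tested, and none lower, with a median of 0.359. These were *dhx58*, which regulates RIG-I-like receptors (1.37 ± 0.26 in log2, edgeR adjusted p = 0.018, median 48.3 CPM against 14.4), and *tlr3*, the endosomal receptor for double-stranded RNA (0.78 ± 0.17, adjusted p = 0.027, higher in 9 of 9 samples). Neither passed in a fit within a lineage. *irf3*, *ifih1* (MDA5) and *tbk1* had changes of 0.61, 0.51 and 0.39 that did not pass. Of 6 interferon regulatory factors outside the ISG list, *irf10* was higher (1.04 ± 0.24, adjusted p = 0.048), and the remaining 5, among them *irf1b* (1.13, adjusted p = 0.29), *irf2* (0.26) and *irf2a* (0.22), did not pass, with a median of 0.493 over the 6. Within endothelial-like cells the change of *irf10* was 0.02 and did not pass. It passed in 10 of the 17 alternatives in which it was tested. Among these is the fit without uninjured replicates 1 and 2, which is the main fit unchanged, since neither sample entered it.

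No interferon or receptor gene passed this test. None of 6 tested genes passed in either direction, with a median of 0.0102, and at an unadjusted p under 0.05 there was 1, *ifngr2*, a receptor chain for interferon gamma (-0.27, adjusted p = 0.46). *ifnphi1*, the type I interferon found in the most cells here, had 3.44 to 27.5 CPM in ISG-high cells, with a median of 6.34, against 3.61 to 16.7, with a median of 4.66, in matched cells (0.27 ± 0.22, adjusted p = 0.76). It was found in 134 ISG-high cells (11.3%) and in 2.31% of other cells, at median depths of 15488 and 3602.5 UMIs, and in 1.49% of erythroid-like cells at 1018. *ifnphi2* and *ifnphi4* had no UMI in ISG-high cells, which allows a share of up to 0.254% of cells with a UMI and sets no limit on cells that express them, and *ifnphi3* was found in 5. The receptor genes *ifngr1l* (-0.19), *crfb1* (0.02), *crfb4* (0.04) and *il10rb* (-0.0014) had changes near 0.

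Signalling components on a separate list, without *stat1b* and *stat2*, behaved similarly. Of 12 tested kinases, transducers and SOCS inhibitors, none passed in edgeR, 1 had an unadjusted p under 0.05, and the median was 0.0561. That gene was *socs1a*, a feedback inhibitor of Jak kinases, with 0.80 ± 0.19 in log2 (adjusted p = 0.054, higher in 9 of 9 samples). *stat5b*, *tyk2* and *socs3b* had changes of 0.27, 0.16 and 0.14, and *jak2b* of -0.29. *stat2* and *stat1b*, which are induced by interferon, stood on the list of ISGs. Of these transducers, *stat1b* was higher by 1.28 ± 0.195 in log2 (edgeR adjusted p = 0.003, higher in 8 of 9 samples). Within endothelial-like cells, *stat1b* rose by 0.59 and *stat1a* by 0.50 (edgeR adjusted p = 0.012 and 0.031).

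Genes of antigen processing leaned upwards. Of 23 tested genes, 17 had a positive change, with a median of 0.45, and 2 passed, both immunoproteasome subunits. Over all 10033 genes tested, 4713 had a positive change and 0.568% were higher. *psmb9a* had a median of 57.4 CPM against 40.0 (0.64 ± 0.14, edgeR adjusted p = 0.022) and *psmb12* one of 89.9 CPM against 48.5 (0.71 ± 0.15, adjusted p = 0.024), each higher in 9 of 9 samples. *psme2*, an activator of the proteasome, *psmb8a* and *tap1*, a transporter of peptides, were higher in 9 of 9 samples too, with changes of 0.68, 0.51 and 0.58 and adjusted p of 0.054, 0.065 and 0.090 that did not pass. With 1 matched cell each, 4 of 21 genes of this list were higher, against 0.967% of all genes tested. In that comparison *psmb9a* passed (edgeR adjusted p = 0.016) and *psmb12* did not (adjusted p = 0.067). Neither passed within endothelial-like, epicardial-like or leukocyte-like cells. None of 4 MHC class II genes passed, with a median of -0.161 and changes of -0.34 for *cd74b*, -0.22 for *cd74a*, -0.10 for *mhc2dab* and 0.44 for *ciita*. None of 6 tested guanylate-binding and immunity-related GTPases passed, although all changes were positive with a median of 0.524 and 3 had an unadjusted p under 0.05. *gbp1* had 1.52 ± 0.36 (adjusted p = 0.084), *gbp2* 0.87 (adjusted p = 0.055), *irge4* 0.74 (adjusted p = 0.063), *irgf1* 0.31 and *gbp3* 0.13.

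Chemokines held the largest changes among the named genes, in both directions. *cxcl11.1*, a ligand of Cxcr3 receptors on lymphocytes and macrophages, had 12, 51.5 and 8.72 CPM in ISG-high cells at 3 d.p.i., against 0.358, 0.69 and 1.19 in matched cells. At 14 d.p.i. it had 17.8, 92.6, 203 and 61.5 CPM, against 0, 10.6, 14.2 and 0, and in uninjured ventricles 45.1 and 36.7 CPM, against 0.562 and 6.69. Every sample was higher, by 4.32 ± 0.35 in log2 or 20.0-fold over all (edgeR adjusted p = 5.08e-05), but the 1652 UMIs came from 55 ISG-high cells (4.66%), and with 1 matched cell each the change was 3.41 with an adjusted p of 0.061. It was found in 0.0252% of erythroid-like cells. *cxcl18b*, a chemokine of inflamed fish tissue that draws neutrophils, rose by 0.88 ± 0.17 (adjusted p = 0.015), with a median of 367 CPM against 163. Its change was 0.83 within endothelial-like cells (edgeR adjusted p = 0.52) and 0.02 within epicardial-like cells, and passed in neither. *ccl34b.1* fell by 2.13 ± 0.38 (adjusted p = 0.013), with a median of 1.92 CPM against 6.69. Of its 340 cells with a UMI, 308 were leukocyte-like. *ccl19a.1* (0.68) and *cxcl12a* (0.67) did not pass. The 11 tested chemokines had a median of 0.164, and with 1 matched cell each none of 8 passed.

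Genes of the muscle were among those on the lower side. *tnnt2a*, cardiac troponin T, had 30.5 to 1810 CPM in ISG-high cells, with a median of 86.4, against 84.5 to 2600, with a median of 207, and fell by 1.23 ± 0.22 in log2 (edgeR adjusted p = 0.013, lower in 8 of 9 samples). *ldb3a* (-1.46 ± 0.25), *myoz2b* (-1.37 ± 0.26), *mylk4b* (-1.42 ± 0.21) and *bves* (-1.13 ± 0.22), all known from striated muscle, were lower, as was *lmo7a* (-1.36 ± 0.25), with adjusted p between 0.0027 and 0.015. *acsl1b* (-1.06 ± 0.21), an enzyme of fatty acid activation, *usp13* (-1.11 ± 0.19), a deubiquitinase, and *nfil3-6* (-1.16 ± 0.22), a leucine zipper factor, passed as well, with adjusted p between 0.0062 and 0.015. With 1 matched cell each, the tested changes were smaller. *tnnt2a* (-0.57, adjusted p = 0.016) and *acsl1b* (-0.70, adjusted p = 0.028) still passed, while *ldb3a* (-0.70, adjusted p = 0.076), *lmo7a* (-0.77, adjusted p = 0.064), *bves* (-0.48, adjusted p = 0.23) and *nfil3-6* (-0.70, adjusted p = 0.56) did not, and *mylk4b*, *myoz2b* and *usp13* were not tested. The 11 tested cardiomyocyte markers all had negative changes with a median of -1.11, and 2 passed, *tnnt2a* and *tnni1b*. With 1 matched cell each their median was -0.46 and 1 passed. Of 7 markers used to follow free RNA of other cells, *tnnt2a* passed and *cmlc1* (-1.11, adjusted p = 0.051), *myl7* (-1.23, adjusted p = 0.065), *actc1a* (-1.22, adjusted p = 0.12) and *hbba1* (-1.05, adjusted p = 0.50) did not. Matched cells had lower depth than ISG-high cells, and the part of free RNA in these differences was not tested.

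**Figure D5:**
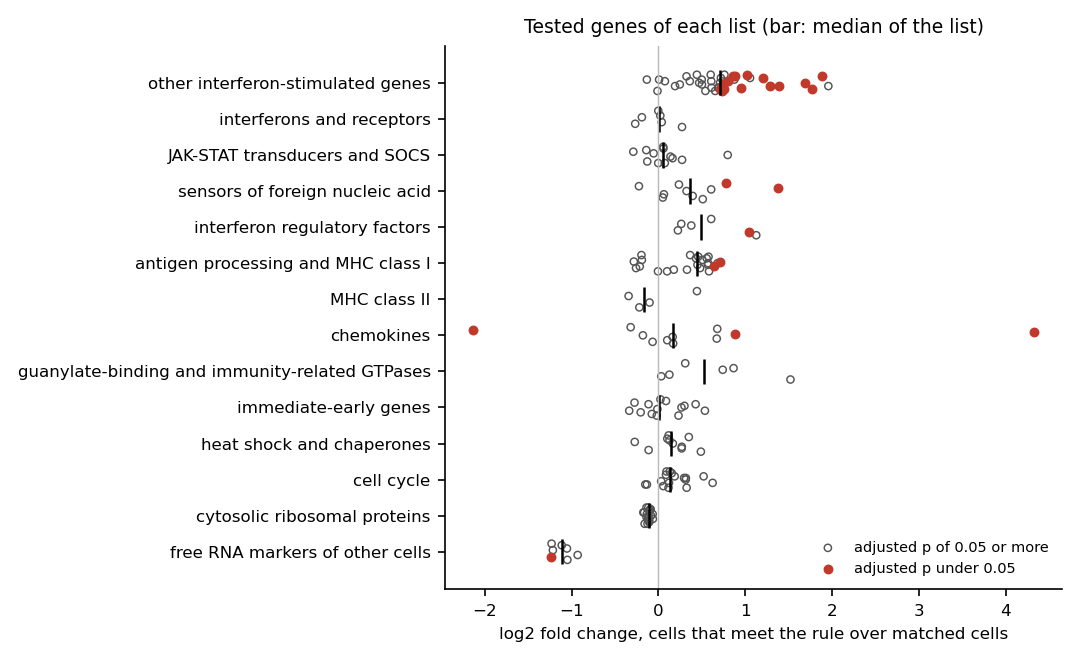
log2 fold change of each tested gene (points) in ISG-high cells over matched cells, by gene list (down the page), with a bar at the median of the list. Red points have an adjusted p under 0.05 and open points do not. The other ISGs have a median of 0.706 and 15 red points, and the markers of free RNA have a median of -1.11.

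Lists that follow cell state showed no calls in the comparison over all lineages. None of 14 immediate-early genes passed, with a median of 0.00557, and *fosl1a* (0.54), *fosb* (0.43), *junbb* (0.30), *klf2a* (0.23) and *jun* (-0.20) had the smallest p. None of 10 heat shock genes and chaperones passed, with a median of 0.147 and changes of 0.49 for *hsp70.1*, 0.35 for *hspa5*, 0.27 for *hsp70.3*, 0.17 for *hspd1* and -0.27 for *hspb1*. None of 17 cell cycle genes passed, with a median of 0.13 and changes of 0.62 for *rrm2*, 0.52 for *tyms*, 0.32 for *tubb2b*, 0.31 for *mcm6* and 0.30 for *mcm3*. At an unadjusted p under 0.05 the immediate-early list held 2 genes and the other 2 lists none. None of 19 ribosomal protein genes passed. Their median was -0.114 with all changes negative, including *rps6* (-0.17), *rpl4* (-0.16), *rpl3* (-0.16), *rps3* (-0.14) and *rpl8* (-0.13), and 0.0205 with 14 positive without TMM scaling. The 10 endothelial markers had a median of -0.231 (0.052 with 1 matched cell each), the 9 tested epicardial ones 0.199, the 12 macrophage ones -0.0739 and the 4 tested erythroid ones -0.989, none with a call.

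The comparison was repeated within lineages, and the genes given here were chosen after their values were seen, except those named above. Within endothelial-like cells (7 samples, 617 ISG-high and 2549 matched cells), 24 of 7716 genes were higher (0.311%) and 19 lower (0.246%) in edgeR. Depth was not matched fully here either, with medians of 11612 UMIs in ISG-high and 6300 in matched cells. *mxe* rose by 0.92 ± 0.14 in log2 (adjusted p = 0.00087), *irf7* by 0.97 ± 0.21 (adjusted p = 0.032) and *znfx1* by 0.60 ± 0.12 (adjusted p = 0.017). *stat2*, a transducer of the interferon signal, rose by 0.49, with a median of 174 CPM against 162, and *fas*, a death receptor, rose by 0.59, with adjusted p of 0.027 and 0.029. *nfe2l2a*, the regulator of the oxidative stress response, rose by 0.49 (adjusted p = 0.027) and *c2cd4a*, which in mammals is known as an inflammation-induced nuclear factor of endothelium, by 0.74 (adjusted p = 0.0099). *egr1*, an immediate-early gene, rose by 0.46 (adjusted p = 0.0498, higher in 6 of 7 samples, median 120 CPM in ISG-high against 119 in matched cells). On the lower side, the haemoglobin genes *hbba2*, *hbba1* and *hbaa1* fell by 1.31, 0.84 and 0.89 in log2, with medians for *hbba1* of 196 CPM in ISG-high and 454 in matched endothelial-like cells. The part of depth and free RNA in the haemoglobin calls was not tested. *bmp10*, a ligand of endothelial receptors, fell by 0.61 (adjusted p = 0.027), lower in 6 of 7 samples. A pair of mitochondrial symbols that do not start with mt- was also lower, with log2 fold changes of -0.73 (adjusted p = 0.00054, lower in 7 of 7 samples) and -0.9985 (adjusted p = 0.0099, lower in 6 of 7), and the part of cell quality in these calls was not tested.

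Within epicardial-like cells (5 samples, 243 ISG-high and 327 matched cells, with 69 ISG-high cells left without a match), 18 of 7551 genes were higher (0.238%) and 16 lower (0.212%). The median depths were 33510 UMIs in ISG-high and 16346 in matched cells. *lgals17* rose by 1.27 ± 0.17 (edgeR adjusted p = 0.00083), with 86.0 to 352 CPM and a median of 173, against 28.9 to 134 and a median of 67.2. *ifi45*, a very abundant interferon-induced gene, had a median of 1530 CPM against 610, and *rnf213b* (1.29 ± 0.22), *mxe* (1.48 ± 0.26), *pkz* (1.32 ± 0.26) and *gig2e* (1.301 ± 0.27) rose with adjusted p between 0.0065 and 0.034. *sele*, which in mammals encodes the adhesion molecule E-selectin, rose by 2.04 ± 0.34 from a low level (median 8.23 CPM against 2.17) and *kitlga*, the ligand of the Kit receptor, by 1.58 ± 0.27 (median 22.6 CPM against 9.24), both with an adjusted p of 0.0065. *hist1h4l* and *asf1ba*, a histone and a histone chaperone, rose by 1.39 and 1.40. Among the lower genes were *nid1b* (-0.85) and *col18a1b* (-1.06), of the basement membrane, the channel subunit *kcne4* (-1.14), and *myl7* (-1.20) and *cmlc1* (-1.22) of the muscle. The part of depth and free RNA in the calls of the muscle genes was not tested. Each of the 10 endothelial markers was found more often in epicardial-like ISG-high cells than in matched ones. *kdrl* was found in 9.41% against 2.4% and *cdh5* in 5.1% against 3.2%, at median depths of 32000 and 14898 UMIs. The part of other cell types, depth and free RNA in the rise of *sele* was not tested.

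Within leukocyte-like cells (3 samples, 56 ISG-high and 267 matched cells), 4 of 2285 genes were higher (0.175%) and 3 lower (0.131%). The median depths in this fit were 12184 UMIs in ISG-high and 4787 in matched cells. *cfd*, complement factor D, rose by 2.71 ± 0.36 (edgeR adjusted p = 0.020, median 269 CPM against 42.3), *c7a*, a later complement component, by 2.44 ± 0.33 (adjusted p = 0.020, median 180 CPM against 27) and *pmp22a*, a membrane protein, by 3.39 ± 0.46 (adjusted p = 0.020). *hbba1* and *hbaa1* fell by 2.45 and 2.68. *cfd* is also a leading gene of the *edn1* endothelial-like cluster, and *tbx18* was found in 14.7% of leukocyte-like ISG-high cells against 2.14% of matched leukocyte-like cells, and *cdh5* in 13.2% against 5.50%, at median depths of 11683 and 5240 UMIs. The part of other cell types, depth and free RNA in these calls was not tested. *pkz* (2.16) had an adjusted p of 0.087 in leukocyte-like cells. Of named symbols, *mxe* and *pkz* were called in both endothelial-like and epicardial-like cells, among 5 genes in all, and no gene was called in all 3 lineages. The leukocyte-like fit tested only 2285 genes, against 7716 in endothelial-like and 7551 in epicardial-like cells. *mxe* was not among the genes tested in leukocyte-like cells. The difference between lineages itself was not tested.

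Whether the change in ISG-high cells differed between time points was tested by an interaction term over the 9 samples. Between 3 d.p.i. and uninjured ventricles, 3 of 10033 genes passed in edgeR (0.0299%), all with a lower log2 fold change at 3 d.p.i. *gbp1*, a guanylate-binding GTPase, had 56.9, 79.0 and 72.4 CPM in ISG-high cells at 3 d.p.i., against 43.1, 33.3 and 61.7 in matched cells. In uninjured ventricles it had 119 and 82.6 CPM in ISG-high cells, against 9.56 and 5.01 in matched cells. Its log2 fold change was thus 0.62 at 3 d.p.i. and 3.73 in uninjured ventricles, a difference of -3.11 ± 0.50 (adjusted p = 0.034), and the matched cells differed more between the times than the ISG-high cells did. *irf1b*, a transcription factor induced by interferon gamma, had 20.0, 49.0 and 53.4 CPM against 26.7, 36.0 and 48.6 at 3 d.p.i., and 151 and 138 CPM against 22.8 and 15 in uninjured ventricles. Here the ISG-high cells differed more between the times than the matched cells. The difference was -2.83 ± 0.46 (adjusted p = 0.034). *rbp2a*, a retinol-binding protein, had 0.913, 0.74 and 2.11 CPM in ISG-high cells at 3 d.p.i., against 5.46, 12.6 and 31.1 in matched cells, and was thus lower in all 3 samples. In uninjured ventricles it had 502 and 0 CPM in ISG-high cells, against 172 and 0 in matched cells. The uninjured change of *rbp2a* thus rests on replicate 3 alone. *rbp2a* is also a leading gene of the unnamed *cxcl12b* cluster, which gave 3 of the 104 ISG-high cells of that sample. The part of this cluster in the change was not tested. The log2 fold changes of -3.46 and 1.54 differed by -5.01 ± 0.55 (adjusted p = 0.00085). Only 2 uninjured samples entered, with 104 and 14 ISG-high cells. No gene passed for 14 d.p.i. against uninjured ventricles (0.0%, 279 genes at an unadjusted p under 0.05, smallest adjusted p 0.18) or for 14 d.p.i. against 3 d.p.i. (0.0%, 261 genes).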

How the data were processed

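Dissociated ventricles had been run on the 10x Genomics Chromium system. The authors made the deposited UMI counts per gene and barcode with Cell Ranger at default settings on GRCz11, per the labels and the study's methods. The values are whole, unnormalized counts. The members and the gene lists were chosen with earlier results of these data known.

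Cells were filtered as stated in the report. Clustering used scanpy 1.11.5 (2000 variable genes without the listed interferon genes, 30 components, 20 neighbours, Leiden resolution 1.2). A cluster received a name with at least 3 markers raised at least 2-fold and a lead of 0.5 in mean log2 fold over any other type. Of 38 clusters, 9 stayed unnamed. Scrublet's own calls marked 0.304% of 38473 cells, too few to have worked, so the top 6% of scores per sample served instead. Thinned shares are exact expected values, and cells under the fixed depth were left out. Between 156 and 234 cells of uninjured replicates 3 and 4, 572 to 1709 per sample at 3 d.p.i. and 118 to 784 per sample at 14 d.p.i. were below 1000 UMIs. Shares were compared by exact permutation tests over samples, and zero counts are given with the limit that 3 counts allow.

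Counts were summed per sample. The gene test was the quasi-likelihood F test of edgeR 4.0.16 in R 4.3.3, after filterByExpr and TMM scaling and with the sample as a block, with Benjamini-Hochberg adjustment over all genes tested and a threshold of 0.05. Errors beside fold changes are SE. Mitochondrial symbols that start with mt- and the 7 genes were left out. The test was tried on simulated data. Named genes were, by rule, the 7 genes, the interferons and receptors, the 5 genes of each list with the smallest p, and the 15 higher and 10 lower genes with the smallest adjusted p. Some genes are not reported here. Alternatives were DESeq2 1.42.0, other scaling, filters, comparison cells, doublet handling, thresholds of the rule, a replicate block and leaving out each sample. The doublet scores, the other symbols, the depth limits on matched cells and the comparison with 1 matched cell each were added after seeing the data.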

Additional observations from a re-analysis of the deposited data

Results flagged for a closer look

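In 12 groups of 4 to 6 samples, the highest or lowest sample was compared with the distance to its nearest neighbour (Dixon's criterion). In 10 of them a sample stood apart. For normally distributed values chance meets this criterion in about 1 of 20 groups. The values here cannot fall below 0, so that rate need not hold for them. Uninjured replicate 3 had 3.663% ISG-high cells, with the next uninjured sample at 0.4222%. It also stood apart after thinning to 2000 UMIs (1.349%, next 0.05644%) and in the CPM of the 7 genes over all cells (123.4, next 21.94). Replicate 4 at 14 d.p.i. had 7.934% ISG-high cells (next 0.6875%), 2.013% after thinning (next 0.582%) and 475.1 CPM (next 133.6). It stood apart in each of 4 lineages as well, with 11.29% of endothelial-like cells (next 1.577%), 14.02% of epicardial-like cells (next 1.365%), 10.44% of leukocyte-like cells (next 0.8097%) and 4.037% of cardiomyocyte-like cells (next 0%). These values share the same cells and are not independent of each other.

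For 3 genes the change in ISG-high cells differed between 3 d.p.i. and uninjured ventricles by the interaction term in edgeR. The differences of log2 fold changes were -3.105 for *gbp1*, -2.827 for *irf1b* and -5.006 for *rbp2a*. The uninjured change of *rbp2a* rests on uninjured replicate 3, since replicate 4 had 0 CPM in both ISG-high and matched cells.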

How the results depend on the processing

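Of the 86 named genes, 31 passed in the comparison of ISG-high with matched cells. Of these, 10 passed under each alternative in which they were tested, out of 23 alternatives, and none changed direction. The 23 include the fit without uninjured replicates 1 and 2, which is the main fit unchanged, since neither sample entered it. The share of ISG-high cells at 3 d.p.i. against uninjured ventricles differed by 14.32 points with at least 500 genes per cell and by 12.61 without erythroid-like and thrombocyte-like clusters, and 14 d.p.i. against 3 d.p.i. by -12.98 and -11.43, all past the threshold. The difference between 14 d.p.i. and uninjured ventricles was -0.3032 without uninjured replicates 1 and 2. In endothelial-like cells it was -0.5838 without them and -0.06451 after thinning to 1000 UMIs. Thinning gave 0.03694 for epicardial-like cells, and for 14 d.p.i. against 3 d.p.i. 0.04498 in cardiomyocyte-like and 0.005917 in thrombocyte-like cells. Within samples, thinning gave -0.04547 for endothelial-like and 0.1543 for leukocyte-like cells against other cells. The cause was not tested.

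Leaving out each sample in turn gave 3.94 to 10.05 points for 3 d.p.i. against uninjured ventricles, -9.371 to -3.264 for 14 d.p.i. against 3 d.p.i. and -0.5628 to 1.543 for 14 d.p.i. against uninjured ventricles, negative without replicate 4 at 14 d.p.i. The last contrast ranged from -0.9178 to 1.941 in endothelial-like, -3.5 to 0.005138 in epicardial-like, -0.2102 to 0.6729 in cardiomyocyte-like and -0.2845 to 2.326 in leukocyte-like cells. In thrombocyte-like cells 14 d.p.i. against 3 d.p.i. ranged from -0.438 to 0.04748.

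Samples of the same replicate number did not deviate together (correlations of -0.208 to 0.0997), so the numbers were not read as pairs. With a replicate block, exact permutation within pairs gave 6.60 points (p = 0.5) for 3 d.p.i. against uninjured ventricles, 1.259 (p = 0.625) for 14 d.p.i. against uninjured ventricles and -7.43 (p = 0.25) for 14 d.p.i. against 3 d.p.i., and 3.525 for 14 d.p.i. against uninjured ventricles in epicardial-like cells.

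The 57 higher genes became 114 in DESeq2, 117 without TMM, 237 without a filter on low counts, 122 against all other cells of the sample and cluster, and 33 with at least 4 of the 7 genes. The 36 lower genes became 58 in DESeq2, 472 without a filter, 253 against all other cells, 77 against matched cells with none of the 7 genes, 23 without the highest doublet scores, 10 with at least 4 genes, 74 with matched cells within 0.5 log2 units of depth and 8 with 1 matched cell each. Leaving out a sample gave 27 to 90 higher and 7 to 70 lower genes, with 29 and 14 without replicate 4 at 14 d.p.i., 27 and 14 without replicate 2 at 3 d.p.i., 47 and 7 without replicate 1 and 90 and 70 without replicate 3 at 3 d.p.i., and 74 and 58 without uninjured replicate 4. In endothelial-like cells the 24 higher genes became 93 without TMM and 87 without a filter, and the 19 lower ones 9 and 65. Leaving out a sample gave 3 to 37 and 5 to 30, the fewest without replicate 4 at 14 d.p.i. In epicardial-like cells the 18 higher genes became 28 without TMM and 117 without a filter, and the 16 lower ones 7 in DESeq2, 8 without TMM and 111 without a filter. Leaving out a sample gave 5 to 41 and 1 to 43, the fewest without replicate 2 at 3 d.p.i. In leukocyte-like cells the 4 higher genes became 18 in DESeq2, 13 without TMM and 182 without a filter, and the 3 lower ones 9, 6 and 48. Leaving out a sample gave 1 to 47 and 3 to 7, with 1 higher gene without replicate 4 at 14 d.p.i.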

Other observations

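*ifng1*, the interferon gamma gene, made by lymphocytes, had 33 UMIs in 17 cells, all of them leukocyte-like, of which 7 were from uninjured ventricles, 3 from 3 d.p.i. and 7 from 14 d.p.i. None of these cells was ISG-high, which allows a share of up to 0.254% of ISG-high cells with a UMI and sets no limit on cells that express it. Its relative *ifng1r* had 2 UMIs in 1 ISG-high cell and in no other cell. The receptor chain *crfb2* was found in 77 ISG-high cells (6.52%) and in 1.41% of other cells of lower depth, and *il10ra* in 42 (3.56%) and 1.42%. Both were too low to be tested. Of the 57 genes higher in ISG-high cells, 22 stood on a gene list and 35 on none, and of the 36 lower genes 34 stood on none.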
